A study of Mus musculus with 4 samples.

Results

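Acod1, Nos2, Arg1, Arg2, Ass1, Hif1a and Xdh encode the enzyme that makes itaconate, the inducible nitric oxide synthase, 3 enzymes that use or remake arginine, a transcription factor of the oxygen and metabolic response, and xanthine dehydrogenase. They were chosen by name, as the 7 gene symbols listed here, from the 32285 genes of the count tables. The study profiled glia-enriched brain cell suspensions of male mice in which the human APOE3 or APOE4 coding region replaces the mouse Apoe gene on both copies, with droplet single-cell RNA-seq of transcript 3' ends. There were 4 libraries, each from 3 pooled mice: APOE4 mice given 5 mg/kg of lipopolysaccharide (LPS, a bacterial cell wall component) into the peritoneal cavity 24 h before collection, APOE3 mice given the same, APOE4 mice given saline (NaCl), and APOE3 mice given NaCl. Every library carried a human APOE allele in place of the mouse gene, so no mouse with its own Apoe was included.

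Acod1 decarboxylates the Krebs cycle intermediate cis-aconitate to itaconate, a metabolite that activated macrophages accumulate. Nos2 and the arginases compete for the same substrate, since Nos2 turns arginine into nitric oxide and citrulline while Arg1 and Arg2 split it into ornithine and urea, and Ass1 takes the first of the steps that remake arginine from citrulline. Hif1a is the oxygen-regulated subunit of a transcription factor that lipopolysaccharide also induces in macrophages, and Xdh makes uric acid from hypoxanthine and xanthine.

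Each group was a single library, so differences between groups have no replicate check, pooled animals cannot be told apart, and no p-value is given. Levels are UMIs (unique molecular identifiers, 1 per captured transcript) summed over the cells of a class and scaled to the total UMIs of those cells, as CPM. Intervals are exact 95% intervals (for differences between log2 ratios, normal approximations from the counts), and they cover counting error only. After filters the libraries held 18182 cells (APOE4 LPS), 13792 cells (APOE3 LPS), 12002 cells (APOE4 NaCl) and 13000 cells (APOE3 NaCl), at median depths of 2311, 5652, 4271 and 3950 UMIs per cell in that order. The APOE4 LPS library stood apart: 37.5% of its barcodes had fewer than 1000 UMIs, against 4.53 to 5.62% in the other libraries, and 31.4% of its cells fell in clusters that no marker list named, against 3.40 to 5.38%. With the cell filter used here no doublets were called in that library, while under a looser filter of 200 genes and 500 UMIs 28.9% of the barcodes that passed were called. Called doublets were removed in the other 3 libraries. Any pair of libraries shared 61 to 140 cell barcodes. Cells were grouped into classes from marker lists, so each class name means cells like that type, and the 7 genes were left out of the clustering. Microglia markers summed to 11117 and 9957 CPM in the APOE4 LPS and APOE3 LPS microglia, against 18820 and 17993 CPM in the APOE4 NaCl and APOE3 NaCl microglia. Most microglia of the LPS libraries lay in clusters 12 and 10, and most of the NaCl libraries in clusters 9 and 11. Most endothelial cells of APOE4 LPS lay in cluster 8 and most of APOE3 LPS in cluster 13, while those of the NaCl libraries lay in cluster 14. Endothelial markers summed to 10631 CPM in the endothelial class of APOE4 LPS, against 21585 to 21655 CPM in the other 3 libraries.

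Promoter sequences of 3 of the 7 genes were found in the RefSeq promoter table (build GRCm38), and all 3 are shown. Acod1 was far higher after LPS, Ass1 was lower after LPS in astrocytes, and Hif1a went in opposite directions in different classes. Any link between the sequences and these changes was not tested. Each sequence is given 5' to 3' on the plus strand. The Acod1 and Ass1 windows end before the first annotated exon, and the Hif1a window ends before the RefSeq start at 73907867, which lies inside the annotated gene and downstream of its outermost start. Capitals mark the motif matches described after the sequences.
Acod1 promoter, chr14:103046762-103046976: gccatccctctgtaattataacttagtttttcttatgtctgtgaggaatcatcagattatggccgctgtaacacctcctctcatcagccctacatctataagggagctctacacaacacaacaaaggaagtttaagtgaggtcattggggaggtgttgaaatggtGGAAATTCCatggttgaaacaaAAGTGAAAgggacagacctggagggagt
Ass1 promoter, chr2:31470020-31470206: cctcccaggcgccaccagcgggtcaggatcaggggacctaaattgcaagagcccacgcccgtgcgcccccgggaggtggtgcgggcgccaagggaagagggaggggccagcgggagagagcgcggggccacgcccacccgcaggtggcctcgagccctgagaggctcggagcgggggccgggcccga
Hif1a promoter, chr12:73907617-73907866: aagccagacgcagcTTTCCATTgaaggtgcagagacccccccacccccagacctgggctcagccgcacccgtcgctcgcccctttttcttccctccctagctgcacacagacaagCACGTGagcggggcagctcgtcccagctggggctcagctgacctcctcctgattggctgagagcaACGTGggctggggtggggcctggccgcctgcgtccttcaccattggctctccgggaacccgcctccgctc
The letters searched, on both strands, were GGAANTTCC (a palindromic form of the NF-kappaB motif), AANNGAAA (interferon-regulatory factors), TTCNNNGAA (STAT factors), TGANTCA (AP-1), ACGTG (the core bound by hypoxia-inducible factors) and the longer NF-kappaB motif, and these patterns were chosen after the sequences were seen. Acod1 held GGAAATTCC, 85 bases before its RefSeq start at 103047012, and AAGTGAAA, 63 bases before that start. Over the same window 0.648% of all promoters held a match to GGAANTTCC and 18.9% a match to AANNGAAA. Ass1 held none of the 6 patterns. Hif1a held ACGTG at 3 places over both strands, at 135, 134 and 70 bases before its RefSeq start. The first 2 of them lay on opposite strands of the same letters, and 16.6% of promoters held at least 1. A match to AANNGAAA lay on the minus strand 236 bases before the Hif1a RefSeq start, and 21.3% of promoters held that pattern.

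Acod1 (chr14:103046977-103056573, plus strand, build GRCm38 for this and the positions that follow) was nearly absent without LPS and was found after LPS in myeloid classes and, in APOE4 LPS, in several other classes too. In microglia it had 211 UMIs over 1356 cells in APOE4 LPS and 602 UMIs over 4266 cells in APOE3 LPS, against 7 UMIs over 2900 cells in APOE4 NaCl and 2 UMIs over 3186 cells in APOE3 NaCl. The levels were 24.1 CPM (21.0 to 27.6) and 18.0 CPM (16.6 to 19.5) in the LPS libraries, against 0.510 CPM and 0.136 CPM in the NaCl libraries. The LPS and NaCl libraries lay far apart in both genotypes, with ratios of 47.3-fold (22.6 to 119) for APOE4 and 132-fold (36.3 to 1091) for APOE3. APOE4 LPS was 1.34-fold (1.14 to 1.57) above APOE3 LPS, a difference of 0.41 on the log2 scale that was -0.11 under looser cell filters and -0.33 when the 7 genes were allowed into the clustering.

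Acod1 UMIs were found in 33 of 1356 microglia (2.43%) in APOE4 LPS and 104 of 4266 (2.44%) in APOE3 LPS, against 2 of 2900 and 2 of 3186 in the NaCl libraries. With every cell thinned to 1000 UMIs the shares were 1.18% and 0.820% in the LPS libraries, against 0% in both NaCl libraries, and in oligodendrocytes, which should lack the gene, 0.0692% and 0% in APOE4 LPS and APOE3 LPS. Neurons should lack it as well, but in APOE4 LPS 48 of 1383 neurons (3.47%, and 1.81% thinned) had an Acod1 UMI, against 0 of 353 neurons in APOE3 LPS. Neurons of APOE4 LPS averaged 3207 UMIs per cell and its microglia 6444, and microglia markers summed to 1534 CPM in its neurons against 499 CPM in those of APOE3 LPS. The share of microglia with Acod1 in APOE4 LPS was thus not above that of a class that should lack the gene, while that in APOE3 LPS was above both classes. No class difference in APOE4 LPS is read from these shares.

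The level rested on few cells. The UMIs were concentrated: 13 cells of APOE4 LPS and 32 cells of APOE3 LPS had more than 5 UMIs each and together held 82.9% and 73.4% of all microglial Acod1 UMIs, and the single highest cells held 28 and 47. By cluster, cluster 12, led by Tnf, Il1b and Il1a, had 197 and 584 of the UMIs in APOE4 LPS and APOE3 LPS (48.0 and 28.7 CPM), cluster 10 had 5.07 and 1.53 CPM, and clusters 9 and 11 had 0 UMIs in every library. The NaCl UMIs also lay in cluster 12, which held 71 cells of APOE4 NaCl and 109 of APOE3 NaCl, at 15.3 and 2.50 CPM.

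The Acod1-bearing microglia were checked for markers of other classes. Ccr2 and Ly6c2, which define monocytes, were found in 0 of the 33 and 0 of the 104 cells, while the microglial purinergic receptor gene P2ry12 was found in 90.9% and 93.3% of them. Their median depth was 11021 and 10162 UMIs, against 5867 and 7169.5 UMIs in the microglia with no Acod1 UMI, and their summed microglia marker level was 7023 and 8266 CPM against 11299 and 10018 CPM. The neutrophil transcript S100a8 was found in 12.1% and 15.4% of them, against 4.69% and 6.17% of the other microglia of the same libraries, and its part in the result was not tested. Without the cells that carried 3 or more markers of another class, the LPS over NaCl difference was 3.93 for APOE4 and 4.22 for APOE3 on the log2 scale, against 4.06 for both with them (1 CPM added to each level).

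Outside microglia, Acod1 was measured in monocytes, neutrophils, border-associated macrophages and an unnamed cluster. Monocytes had 167 UMIs (127 CPM, in 36 of 226 cells) in APOE4 LPS and 135 UMIs (143 CPM, in 24 of 93 cells) in APOE3 LPS, against 0 UMIs in the 45 and 39 monocytes of the NaCl libraries. Neutrophils had the highest level of any named class, with 602 CPM (23 of 46 cells) in APOE4 LPS and 407 CPM (71 of 114 cells) in APOE3 LPS, against 10 UMIs in the 14 neutrophils of APOE4 NaCl and 1 UMI in the 4 of APOE3 NaCl. Between the LPS libraries, the monocyte level of APOE4 was 0.886 of that of APOE3 (0.702 to 1.12), an interval that includes no difference. Cluster 19, led by the scavenger receptor genes Marco and Msr1 with Ccl5 and Saa3, was seen in the LPS libraries alone, with 1751 UMIs (130 CPM, 239 of 1463 cells) in APOE4 and 198 UMIs (138 CPM, 34 of 152 cells) in APOE3, a ratio of 0.943 (0.814 to 1.10).

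Border-associated macrophages differed more between the LPS libraries, with 116 UMIs (130 CPM) in APOE4 LPS and 14 UMIs (12.7 CPM) in APOE3 LPS, against 0 UMIs in both NaCl libraries. The ratio of APOE4 LPS to APOE3 LPS was 10.3-fold (5.89 to 19.4), and 82.8% of the APOE4 LPS UMIs lay in 5 of its 188 cells. Against a floor of 3 counts per library, LPS was at least 13.9-fold higher for APOE4 and at least 1.78-fold higher for APOE3. Where in the library the transcript sat differed too: cluster 19 held 56.4% of all Acod1 UMIs in APOE4 LPS and 16.3% in APOE3 LPS, while microglia held 6.79% and 49.7%. In APOE4 LPS Acod1 was also counted at 23.2 CPM in erythrocytes, 16.5 CPM in neurons and 9.20 CPM in choroid plexus cells, and cluster 1, a cluster of shallow cells almost all from that library, held 392 UMIs. Endothelial cells had 68 UMIs spread over 34 cells in APOE4 LPS, against 21 UMIs in APOE3 LPS of which 20 lay in 1 cell and 0 UMIs in both NaCl libraries. The microglia marker level of the APOE4 LPS endothelial class was also the highest of the 4 libraries (1833 CPM against 242 to 643 CPM), and its part in the Acod1 count was not tested.

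**Figure D1:**
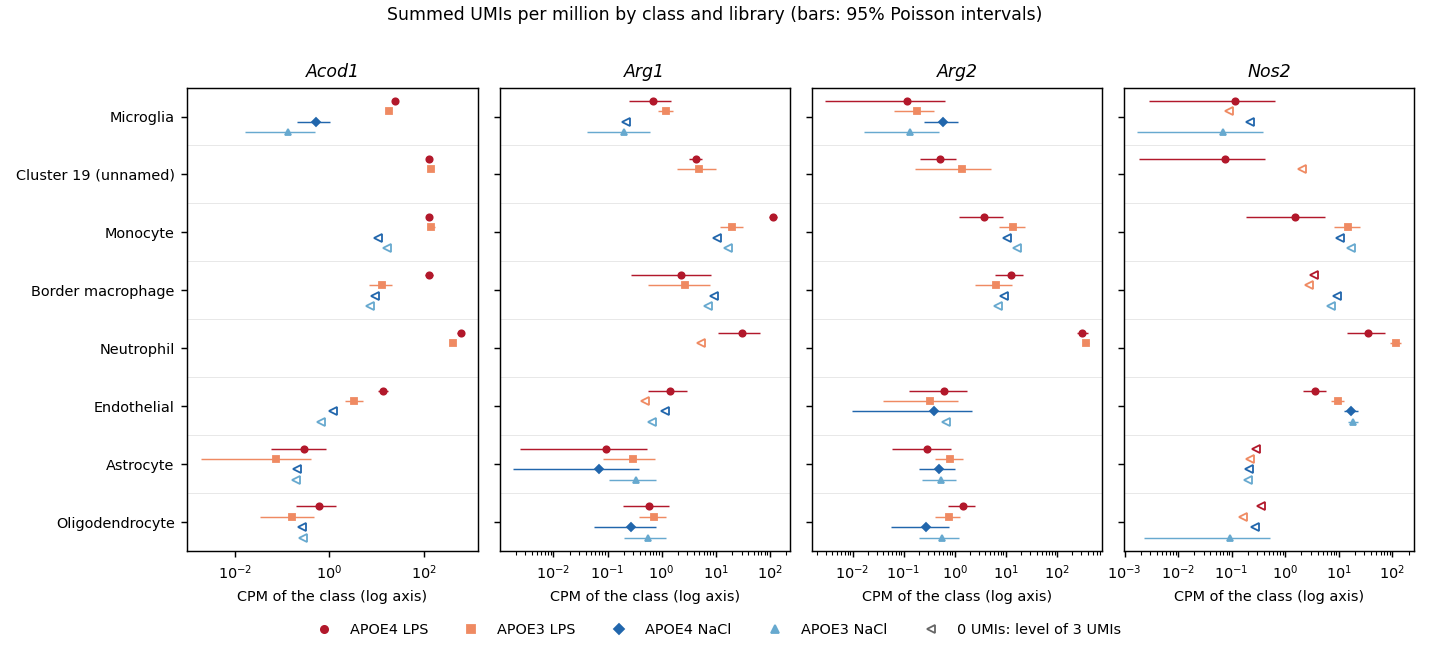
Level of Acod1, Nos2, Arg1 and Arg2 (CPM, log axis, exact 95% Poisson intervals as bars) in 7 cell classes and unnamed cluster 19, with 1 point per library, APOE4 LPS uppermost; open triangles mark 0 UMIs, drawn at the level of 3 UMIs, and a class with fewer than 20 cells in a library is not drawn for it. Acod1 separates LPS from NaCl libraries in microglia, where the levels were 24.1 and 18.0 CPM against 0.510 and 0.136 CPM, while Nos2 in endothelial cells is lower in the LPS libraries.

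Nos2 (chr11:78920787-78960254, plus strand), the nitric oxide synthase that macrophages are known to induce, was at or near 0 in microglia of all 4 libraries. It was measured mainly in endothelial cells, neutrophils and the unnamed cluster 17. Microglia had 1 UMI in APOE4 LPS and 1 in APOE3 NaCl, with 0 in the other libraries, and astrocytes had 0 in every library. The count of 0 over the 4266 APOE3 LPS microglia allows a level of up to 0.0896 CPM (3 counts). In endothelial cells Nos2 had 18 UMIs (3.63 CPM) in APOE4 LPS and 59 UMIs (9.53 CPM) in APOE3 LPS, against 44 UMIs (17.2 CPM) in APOE4 NaCl and 82 UMIs (18.4 CPM) in APOE3 NaCl. Both LPS libraries were below both NaCl libraries, by 4.74-fold (2.68 to 8.72) in APOE4 and by 1.93-fold (1.36 to 2.74) in APOE3.

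APOE4 LPS endothelial cells had 2.63-fold (1.53 to 4.73) less Nos2 than APOE3 LPS endothelial cells, and that gap depended on cluster 8, where Nos2 was at 1.52 CPM. In cluster 13, which both LPS libraries shared, it was at 5.83 CPM in APOE4 LPS and 9.83 CPM in APOE3 LPS. Without the clusters that came to more than 80% from 1 library, the log2 difference between the LPS libraries was -0.62, against -1.19 with them, and with doublets kept in all libraries it was -0.38. Endothelial cells of APOE4 LPS held microglia markers at 1833 CPM and astrocyte markers at 2582 CPM, against 485 and 825 CPM in APOE3 LPS, and their part in the level was not tested. Neutrophils had 7 Nos2 UMIs (35.1 CPM, 4 of 46 cells) in APOE4 LPS and 65 UMIs (115 CPM, 25 of 114 cells) in APOE3 LPS, against 0 in the 14 and 4 neutrophils of the NaCl libraries. The 14 Nos2 UMIs of APOE3 LPS monocytes all lay in 1 cell.

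Arg1 (chr10:24915221-24927484, minus strand), the cytosolic arginase and a marker of alternatively activated macrophages, was low outside monocytes. Monocytes had 151 UMIs (114 CPM, 24 of 226 cells) in APOE4 LPS and 19 UMIs (20.1 CPM, 4 of 93 cells) in APOE3 LPS, against 0 in both NaCl libraries, whose monocytes numbered 45 and 39. The APOE4 LPS level was 5.69-fold (3.52 to 9.72) above that of APOE3 LPS, and a few cells decided it: 5 cells held 79.5% of the APOE4 LPS UMIs, and 1 cell held 16 of the 19 in APOE3 LPS. Endothelial markers in the monocyte class summed to 999 CPM in APOE4 LPS and 211 CPM in APOE3 LPS. In microglia Arg1 had 6 UMIs in APOE4 LPS and 40 UMIs in APOE3 LPS, against 0 in APOE4 NaCl and 3 in APOE3 NaCl. The APOE3 ratio was 5.84-fold (1.86 to 29.5), with 77.5% of the 40 UMIs in 5 of the 14 cells that had any. The 24 Arg1 UMIs of APOE4 LPS fibroblasts lay in 1 cell.

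Arg2 (chr12:79130777-79156301, plus strand, overlapped on the other strand by Gm48780 and Vti1b), the mitochondrial arginase, was led by neutrophils. They had 63 UMIs (316 CPM, 26 of 46 cells) in APOE4 LPS and 210 UMIs (370 CPM, 86 of 114 cells) in APOE3 LPS, against 13 UMIs in 7 of 14 cells of APOE4 NaCl and 14 UMIs in all 4 cells of APOE3 NaCl. Arg2 was thus present in neutrophils with and without LPS, and neutrophils were too few in the NaCl libraries for a ratio (at least 50 cells per library were required). An Arg2 UMI was also found in 16 of 23 Acod1-bearing neutrophils (69.6%) in APOE4 LPS and 54 of 71 (76.1%) in APOE3 LPS. Among all neutrophils, which include these cells, the shares with Arg2 were 56.5% and 75.4%. The shares were close in APOE3 LPS, and the wider gap in APOE4 LPS rests on 23 cells. Microglia had 1, 6, 8 and 2 Arg2 UMIs in APOE4 LPS, APOE3 LPS, APOE4 NaCl and APOE3 NaCl. Neurons were even across the libraries, with 3.61 and 4.32 CPM in APOE4 LPS and APOE3 LPS, against 2.94 and 3.33 CPM in APOE4 NaCl and APOE3 NaCl. In oligodendrocytes Arg2 had 12 and 14 UMIs in APOE4 LPS and APOE3 LPS, against 3 and 6 UMIs in APOE4 NaCl and APOE3 NaCl.

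Ass1 (chr2:31470207-31520672, plus strand), argininosuccinate synthase, was lower after LPS in astrocytes, endothelial cells and cluster 17. Astrocytes had 91 UMIs (8.62 CPM) in APOE4 LPS and 124 UMIs (9.20 CPM) in APOE3 LPS, against 313 UMIs (21.9 CPM) in APOE4 NaCl and 223 UMIs (14.9 CPM) in APOE3 NaCl. The fall relative to NaCl was 2.54-fold (2.01 to 3.25) in APOE4 and 1.62-fold (1.29 to 2.03) in APOE3. APOE4 LPS was 1.07-fold lower than APOE3 LPS (0.808 to 1.41, an interval that includes no difference), while APOE4 NaCl was 1.47-fold (1.24 to 1.76) above APOE3 NaCl. The LPS effects of the genotypes differed by -0.65 on the log2 scale (-1.11 to -0.19) over the whole class, whose clusters were unequally filled: cluster 4 held 945 of the 2593 APOE4 LPS astrocytes and 195, 44 and 72 of those of APOE3 LPS, APOE4 NaCl and APOE3 NaCl.

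Within clusters 6 and 15 the interval of the difference between genotypes included 0. In cluster 6 Ass1 had 22.2 and 18.5 CPM in APOE4 LPS and APOE3 LPS, against 36.2 and 27.3 CPM in APOE4 NaCl and APOE3 NaCl. That is 1.63-fold (1.22 to 2.22) lower in APOE4 and 1.47-fold (1.15 to 1.89) lower in APOE3, with a difference of -0.15 on the log2 scale (-0.69 to 0.39). In cluster 4 it was at 6.58 CPM in APOE4 LPS and 14.2 CPM in APOE3 LPS, against 61.8 CPM in the 72 cells of APOE3 NaCl. Cluster 4 held 44 APOE4 NaCl cells, too few for a difference between genotypes. In cluster 15 it was at 1.36 to 2.14 CPM in all 4 libraries, lowest in the LPS libraries, with a difference of 0.19 on the log2 scale (-1.71 to 2.09). The cluster 15 falls of 1.34-fold (0.449 to 4.81) in APOE4 and 1.53-fold (0.638 to 3.94) in APOE3 had intervals that include no difference. Clusters 6 and 15 differed from each other by more than the libraries did within either, while the libraries lay further apart in cluster 4. After thinning to 1000 UMIs, 0.926% and 0.767% of astrocytes of the LPS libraries had an Ass1 UMI, against 1.93% and 1.44% of APOE4 NaCl and APOE3 NaCl astrocytes.

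In endothelial cells Ass1 had 32 and 29 UMIs in APOE4 LPS and APOE3 LPS (6.45 and 4.68 CPM), against 35 and 58 UMIs in APOE4 NaCl and APOE3 NaCl, a fall of 2.12-fold (1.28 to 3.54) and 2.78-fold (1.75 to 4.50). Cluster 17, whose leading genes Abcc9, Rgs5 and Kcnj8 mark pericytes but which also passed the endothelial list and so was not named, had 12.6 and 6.41 CPM against 41.6 and 23.4 CPM, 3.30-fold and 3.65-fold lower. Ependymal cells, which line the ventricles, had 25.8 CPM in APOE4 LPS, 42.2 CPM in APOE3 LPS, 39.5 CPM in APOE4 NaCl and 41.8 CPM in APOE3 NaCl. The low APOE4 LPS value came with cluster 7, which held 715 of its 853 ependymal cells, and without the clusters of 1 library the APOE4 log2 ratio was -0.03, against -0.59 with them. Microglia had 4, 42, 11 and 8 Ass1 UMIs in APOE4 LPS, APOE3 LPS, APOE4 NaCl and APOE3 NaCl, which was 2.30-fold (1.07 to 5.67) higher after LPS in APOE3. Monocytes had 72 UMIs (54.6 CPM) in APOE4 LPS and 54 UMIs (57.2 CPM) in APOE3 LPS. Pericytes had 3 UMIs in each LPS library, against 10 in APOE4 NaCl and 17 in APOE3 NaCl. That is 2.94-fold (0.758 to 16.6) lower in APOE4 and 7.97-fold (2.31 to 42.5) lower in APOE3.

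Hif1a (chr12:73901375-73947530, plus strand, overlapped on the same strand by Gm49321 and on the other strand by Gm15283), the hypoxia-inducible factor subunit, was found in every class and changed by less than 2-fold in most. In astrocytes it had 132 and 134 CPM in APOE4 LPS and APOE3 LPS, against 197 and 199 CPM in APOE4 NaCl and APOE3 NaCl. It was lower after LPS by 1.49-fold (1.40 to 1.59) in APOE4 and 1.48-fold (1.40 to 1.57) in APOE3, and the genotypes' LPS effects differed by -0.01 on the log2 scale (-0.14 to 0.12). The same direction held within cluster 15 (180 and 185 CPM against 303 and 286 CPM) and cluster 6 (92.0 and 84.3 CPM against 117 and 106 CPM).

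Endothelial cells went the other way. Hif1a had 227 and 249 CPM in APOE4 LPS and APOE3 LPS, against 151 and 149 CPM in APOE4 NaCl and APOE3 NaCl, so it was higher after LPS by 1.497-fold (1.33 to 1.69) in APOE4 and 1.68-fold (1.53 to 1.84) in APOE3. Cluster 17 was also higher, with 260 and 247 CPM against 149 and 174 CPM. It passed both the endothelial and the pericyte lists (median 9471 UMIs per cell, against 1835 in pericytes), so it is no separate check. Border-associated macrophages had 169 and 113 CPM in APOE4 LPS and APOE3 LPS, against 100 and 69.1 CPM in the NaCl libraries, 1.69-fold and 1.64-fold higher.

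Microglia did not share that change. Hif1a had 129 and 142 CPM in APOE4 LPS and APOE3 LPS microglia, against 155 and 160 CPM in APOE4 NaCl and APOE3 NaCl, 1.20-fold and 1.13-fold lower; the APOE3 log2 ratio of -0.17 became 0.07 under trimmed-mean scaling and 0.02 under median-ratio scaling. Within each microglial cluster Hif1a was lower after LPS in both genotypes. In cluster 10 it was 2.06-fold (1.56 to 2.68) lower in APOE4 and 1.97-fold (1.59 to 2.41) lower in APOE3. Cluster 10 held 59 cells of APOE4 NaCl and 93 of APOE3 NaCl. In cluster 12 it had 147 and 166 CPM in APOE4 LPS and APOE3 LPS, against 220 and 195 CPM in APOE4 NaCl and APOE3 NaCl. The intervals included no difference for APOE4 in cluster 9 and for APOE3 in clusters 11 and 12. In T and NK cells the APOE3 ratio was 4.37-fold (2.48 to 8.28), with 30 of the 97 APOE3 LPS UMIs in 1 cell. Over all cells Hif1a was nearly level, at 139 and 129 CPM in APOE4 LPS and APOE3 LPS, against 128 and 138 CPM in APOE4 NaCl and APOE3 NaCl.

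**Figure D2:**
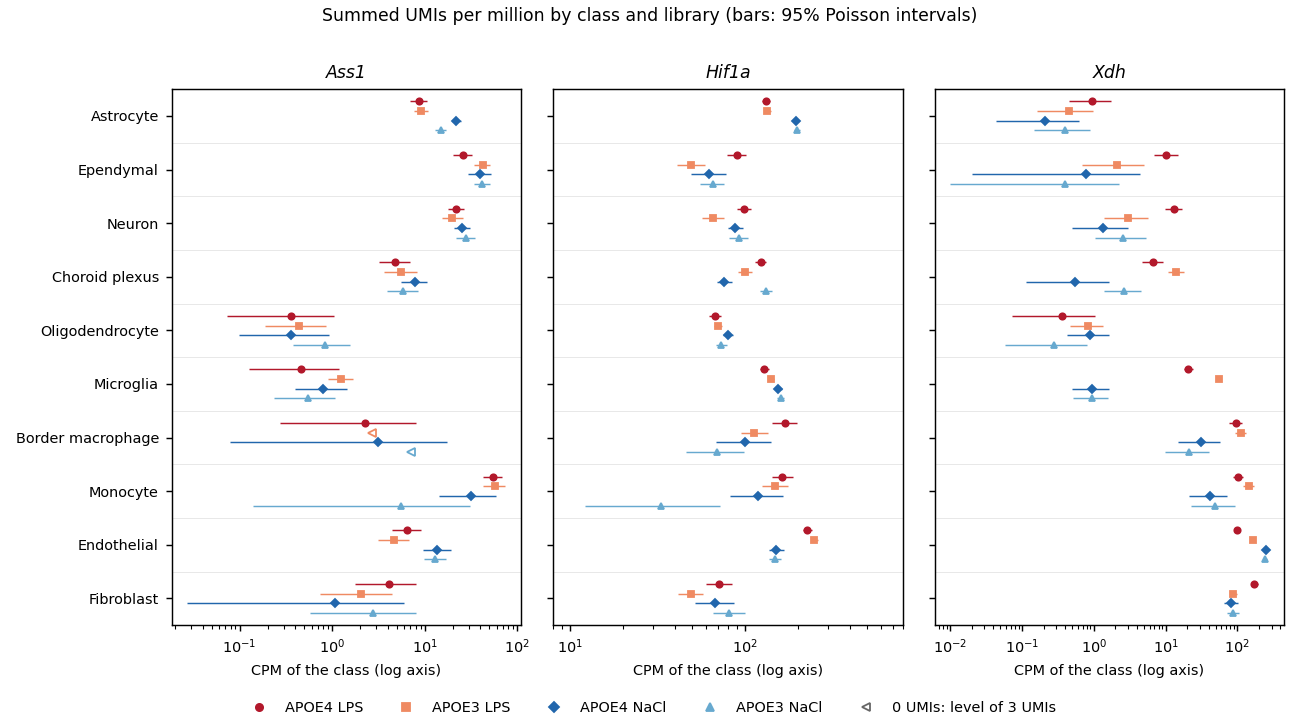
Level of Ass1, Hif1a and Xdh (CPM, log axis, exact 95% Poisson intervals as bars) in 10 cell classes, with 1 point per library, APOE4 LPS uppermost; open triangles mark 0 UMIs, drawn at the level of 3 UMIs. Ass1 and Hif1a in astrocytes are lower in both LPS libraries, Hif1a in endothelial cells is higher in both, and Xdh in microglia stands at 20.8 and 56.2 CPM with LPS against 0.947 and 0.955 CPM with NaCl.

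Xdh (chr17:73883895-73950196, minus strand, overlapped on the same strand by CT025731.2) was higher after LPS in microglia and border-associated macrophages and lower after LPS in endothelial cells. Microglia had 182 UMIs (20.8 CPM) in APOE4 LPS and 1882 UMIs (56.2 CPM) in APOE3 LPS, against 13 UMIs (0.947 CPM) in APOE4 NaCl and 14 UMIs (0.955 CPM) in APOE3 NaCl. Both LPS libraries were far above both NaCl libraries, by 22.0-fold (12.5 to 42.1) in APOE4 and 58.9-fold (35.0 to 108) in APOE3. APOE4 LPS was 2.70-fold (2.32 to 3.16) below APOE3 LPS, and this difference lay between -1.51 and -1.10 on the log2 scale under every alternative run.

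APOE4 LPS was below APOE3 LPS in each microglial cluster. Clusters 11 and 9 held few cells of APOE4 LPS and APOE3 LPS (230 and 164, and 106 and 60). Their gaps rest on few UMIs, and no interval is given for them. In cluster 12 Xdh had 25.1 CPM in APOE4 LPS and 60.0 CPM in APOE3 LPS, in cluster 10 it had 18.5 and 53.5 CPM, in cluster 11 it had 18.1 and 24.4 CPM, and in cluster 9 it had 6.10 and 21.9 CPM. It was found in 138 of 1356 microglia (10.2%) in APOE4 LPS and 1161 of 4266 (27.2%) in APOE3 LPS. Thinned to 1000 UMIs per cell, the shares were 1.84% (1.20 to 2.71) in APOE4 LPS and 4.78% (4.16 to 5.47) in APOE3 LPS, against 0.0345% in APOE4 NaCl and 0.0628% in APOE3 NaCl. In oligodendrocytes the thinned shares were 0.138% and 0.111% in the LPS libraries, and in neurons 1.74% in APOE4 LPS and 0% in APOE3 LPS. The share of APOE3 LPS microglia was thus above both classes, and that of APOE4 LPS microglia was above oligodendrocytes but not above the neurons of its library.

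Xdh and Acod1 were spread differently over the same cells. Cells with a single UMI contributed 59.9% of microglial Xdh UMIs in APOE4 LPS and 39.2% in APOE3 LPS, against 5.69% and 4.98% of Acod1 UMIs. Of the microglia with Acod1, 7 of 33 in APOE4 LPS and 56 of 104 in APOE3 LPS also had Xdh (21.2% and 53.8%), above the 10.2% and 27.2% of all microglia, and the Acod1-bearing cells were also more deeply sequenced (11021 and 10162 UMIs at the median).

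**Figure D3:**
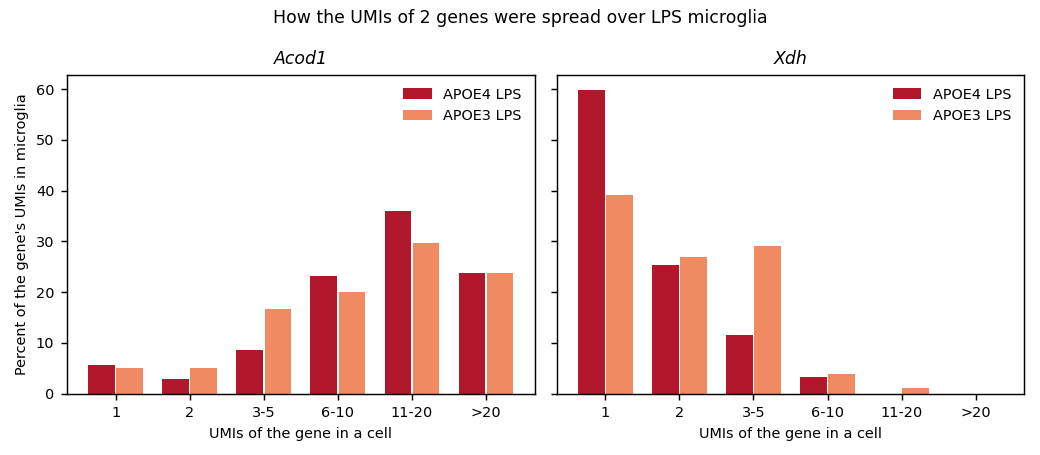
Share of each gene's microglial UMIs (percent) by the number of UMIs that the cell carried, for Acod1 and Xdh in the APOE4 LPS and APOE3 LPS libraries. Most Acod1 UMIs lie in cells with more than 5 UMIs (82.9% and 73.4%), while cells with a single UMI hold 59.9% and 39.2% of Xdh UMIs.

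In endothelial cells, where xanthine oxidoreductase is known to be abundant, Xdh had 99.2 CPM in APOE4 LPS and 168 CPM in APOE3 LPS, against 252 CPM in APOE4 NaCl and 243 CPM in APOE3 NaCl. It was lower after LPS by 2.54-fold (2.26 to 2.87) in APOE4 and by 1.44-fold (1.33 to 1.57) in APOE3. The size of the APOE4 change rested on cluster 8, where Xdh was at 49.8 CPM: without the clusters of 1 library the APOE4 log2 ratio was -0.79, against -1.34 with them, and the difference between the LPS libraries was -0.15, against -0.76. In cluster 13 the LPS libraries had 153 CPM (APOE4) and 171 CPM (APOE3), and in cluster 14 the NaCl libraries had 274 CPM (APOE4) and 266 CPM (APOE3).

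Other classes differed in what Xdh did after LPS. Border-associated macrophages had 95.6 and 112 CPM in APOE4 LPS and APOE3 LPS, against 31.3 and 21.4 CPM in APOE4 NaCl and APOE3 NaCl, 3.06-fold (1.58 to 6.60) and 5.20-fold (2.65 to 11.6) higher. Cluster 19 repeated the lower APOE4 level, with 50.6 CPM in APOE4 LPS and 123 CPM in APOE3 LPS, 2.42-fold (2.04 to 2.86) lower, and monocytes had 103 and 144 CPM, 1.40-fold (1.09 to 1.78) lower. Fibroblasts ran against this, with 172 CPM in APOE4 LPS and 88.4 CPM in APOE3 LPS, against 81.9 CPM in APOE4 NaCl and 87.8 CPM in APOE3 NaCl. Fibroblast Xdh was thus 2.10-fold (1.63 to 2.73) higher after LPS in APOE4 and 1.01-fold in APOE3. Cluster 17, which also passed the endothelial list, was lower in both genotypes. It had 139 and 163 CPM in APOE4 LPS and APOE3 LPS, against 245 and 198 CPM in APOE4 NaCl and APOE3 NaCl. Choroid plexus cells had 6.64 and 14.2 CPM in APOE4 LPS and APOE3 LPS, against 0.556 and 2.64 CPM in the NaCl libraries; without cells carrying 3 markers of another class the log2 ratios were 0.90 and 0.78. Neurons had 58 UMIs (13.1 CPM) in APOE4 LPS and 9 UMIs in APOE3 LPS, against 6 UMIs in APOE4 NaCl and 7 UMIs in APOE3 NaCl.

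A gene was counted as different where its levels lay at least 2-fold apart and at least 1 of the libraries had 10 UMIs. In microglia, LPS over NaCl in APOE4 put 2 of the 4 measured members higher (Acod1 and Xdh) and 0 lower, where 6.80% of all measured genes were higher and 8.80% lower. In APOE3 the count was 4 of 5 higher (Acod1, Arg1, Ass1 and Xdh) and 0 lower, where 5.73% of all genes were higher and 9.60% lower. Between the LPS libraries, 0 of 5 were higher and 2 of 5 lower in APOE4 (Xdh and Ass1), where 3.89% and 3.09% of genes were. Ass1 had 4 UMIs in APOE4 LPS and 42 in APOE3 LPS, 2.74-fold lower (0.994 to 10.5, an interval that includes no difference). Between the NaCl libraries 0 of 3 differed, where 2.03% of genes were higher and 2.12% lower in APOE4.

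Astrocytes and endothelial cells had fewer members past 2-fold on the higher side. In astrocytes 1 of 3 was higher and 1 lower in APOE4 after LPS (Xdh, at 10 against 3 UMIs, and Ass1), where 10.3% and 3.33% of genes were, and 0 of 3 in APOE3, where 4.98% and 3.52% were. Between the LPS libraries 1 of 4 was higher and 1 lower (Xdh and Arg2, at 10 against 6 and 3 against 11 UMIs), where 7.41% and 1.51% were, and between the NaCl libraries 0 of 2, where 1.34% and 2.32% were. In endothelial cells 1 of 5 was higher (Acod1) and 3 lower (Nos2, Ass1 and Xdh) in APOE4 after LPS, where 19.8% and 8.32% of genes were. In APOE3 1 of 5 was higher and 1 lower (Acod1 and Ass1), where 8.20% and 9.25% were. Between the endothelial cells of the LPS libraries 1 of 5 was lower in APOE4 (Nos2), where 3.75% were, and 1 of 5 was higher (Acod1, 13.7 against 3.39 CPM), where 2768 of 13868 genes were. With doublets kept, that Acod1 log2 ratio of 1.74 became -0.087. Between the endothelial cells of the NaCl libraries 0 of 4 differed, where 2.94% and 2.37% of genes did. As log2 values, the trimmed-mean and median-ratio scaling factors were -0.24 and -0.19 in APOE3 microglia, and -0.04 and -0.03 in APOE4 microglia. Each was subtracted from the LPS over NaCl log2 ratio of every gene, which raised that ratio. Small differences such as that of Hif1a are thus relative to the class total.

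**Figure D4:**
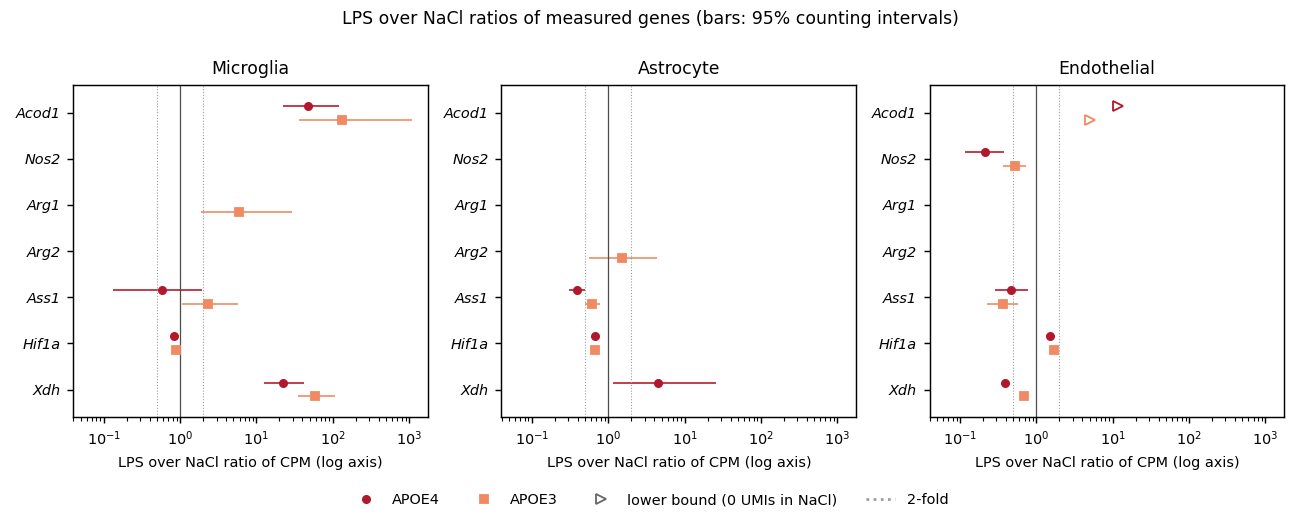
Ratio of CPM, LPS over NaCl (log axis, exact 95% counting intervals as bars), for each measured member in microglia, astrocytes and endothelial cells, APOE4 above APOE3; open triangles are lower bounds where NaCl had 0 UMIs, and dotted lines mark 2-fold. Acod1 and Xdh in microglia lie on the higher side in both genotypes (47.3-fold and 132-fold, and 22.0-fold and 58.9-fold), while Nos2, Ass1 and Xdh in endothelial cells and Ass1 and Hif1a in astrocytes lie on the lower side.

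Genes of the surrounding pathways were described from 6 lists. In microglia the genes of the list of nitric oxide synthesis and its cofactor had 3 of 9 higher and 1 lower in APOE4 after LPS (median log2 ratio 0.25, against -0.07 for all genes), and 2 of 11 higher and 1 lower in APOE3 (median 0.17, against -0.16). Gch1, the first enzyme of the synthesis of tetrahydrobiopterin, the cofactor of Nos2, had 30.2 CPM in APOE4 LPS against 12.5 CPM in APOE4 NaCl, and 32.0 CPM in APOE3 LPS against 13.2 CPM in APOE3 NaCl (2.41-fold and 2.44-fold higher). Gch1 was thus higher in microglia that had 1 and 0 UMIs of Nos2. Ddah2, of the family that degrades methylated arginine inhibitors of nitric oxide synthases, was lower, with 18.8 CPM against 51.1 CPM in APOE4 and 13.4 CPM against 42.7 CPM in APOE3.

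In the arginine transport and recycling list, microglia had 1 of 8 higher and 1 lower in APOE4 (median -0.10) and 0 of 9 higher and 1 lower in APOE3 (median -0.07). Slc7a1, a cationic amino acid transporter, was 3.40-fold higher in APOE4, at 39.9 CPM after LPS against 11.7 CPM after NaCl. The polyamine list, downstream of the arginases, had 2 of 11 higher in APOE4 (median 0.17) and 1 of 11 in APOE3 (median 0.19), with 0 lower in both. The list of itaconate precursors, targets and removal had 1 of 19 higher in APOE4 (Nfkbiz, whose product itaconate is known to limit, at 632 CPM against 264 CPM) and 0 of 19 in APOE3, with medians of 0.15 and 0.10 and 0 lower in both.

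The hypoxia-inducible factor (HIF) list had 2 of 17 higher and 3 lower in APOE4 microglia (median -0.22) and 3 of 18 higher and 4 lower in APOE3 (median -0.19), so its members went both ways. Pfkfb3, which makes the activator of phosphofructokinase, was higher (315 CPM against 157 CPM in APOE4, 386 CPM against 177 CPM in APOE3), and Pdk1, the kinase that inhibits pyruvate dehydrogenase, was lower (32.7 CPM against 73.5 CPM, and 33.7 CPM against 74.2 CPM). The purine list had 1 of 13 higher in APOE4 and 3 of 15 in APOE3, with 0 lower in both. Mocs1, of the synthesis of the molybdenum cofactor that Xdh needs, had 22.2 CPM in APOE3 LPS against 9.27 CPM in APOE3 NaCl.

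Endothelial cells, where Nos2, Ass1 and Xdh were lower, had the arginine list at 1 of 8 higher and 3 lower in APOE4 (median -0.13, against 0.01 for all genes) and 0 of 8 higher and 4 lower in APOE3 (median -0.34, against -0.09). Slc7a1 was lower here, with 145 CPM in APOE4 LPS against 582 CPM in APOE4 NaCl and 211 CPM in APOE3 LPS against 615 CPM in APOE3 NaCl, which is 4.02-fold and 2.91-fold. Gatm, which uses arginine for creatine synthesis, was 2.08-fold and 3.53-fold lower, and Slc3a2, the heavy chain of several amino acid transporters, 2.34-fold and 2.05-fold lower. Slc7a2, a related transporter, went both ways, with 15.5 CPM in APOE4 LPS against 5.47 CPM in APOE4 NaCl and 2.42 CPM in APOE3 LPS against 5.16 CPM in APOE3 NaCl. Most APOE4 LPS endothelial cells lay in cluster 8, and their class had a lower endothelial marker sum than the other libraries. The part of this in the lower APOE4 levels of list genes was not tested.

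The polyamine list had 6 of 11 higher and 0 lower in APOE4 endothelial cells (median 0.98, and 0.60 without the clusters of 1 library, against 0.01 for all genes), a contrast in which 19.8% of all genes were higher, while APOE3 had 2 of 11 higher and 0 lower (median -0.44, against -0.09 for all genes), where 8.20% of all genes were higher. Odc1, which turns ornithine into putrescine, had 109 CPM in APOE4 LPS against 23.9 CPM in APOE4 NaCl and 93.0 CPM in APOE3 LPS against 39.9 CPM in APOE3 NaCl. Sat1, which acetylates polyamines for export, was 2.25-fold and 2.71-fold higher. The nitric oxide list had 1 of 12 higher and 1 lower in APOE4 (Nostrin, which binds the endothelial synthase, was 2.23-fold lower) and 0 of 12 either way in APOE3. The lower endothelial marker sum of APOE4 LPS applies to the Nostrin fall as well, and its part was not tested.

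Of the purine list, 6 of 16 endothelial genes were higher and 1 lower in APOE4 (median 0.62), and 5 of 15 were higher and 2 lower in APOE3 (median 0.20), where 19.8% and 8.20% of all genes were higher. Abcg2, a transporter that exports urate, was lower, with 283 CPM in APOE4 LPS against 1374 CPM in APOE4 NaCl and 524 CPM in APOE3 LPS against 1191 CPM in APOE3 NaCl. Gda, guanine deaminase, which makes xanthine, was higher, with 18.1 CPM against 8.21 CPM in APOE4 and 54.4 CPM against 15.2 CPM in APOE3. The HIF list had 2 of 17 higher and 2 lower in APOE4 and 2 of 17 higher and 1 lower in APOE3, among them Pfkfb3 (4.14-fold and 2.21-fold higher) and Hif3a (3.52-fold and 2.23-fold higher). Epas1, the HIF subunit best known from endothelium, had 538 CPM in APOE4 LPS against 1322 CPM in APOE4 NaCl. The Epas1 fall also came with the lower endothelial marker sum of APOE4 LPS, whose part was not tested. The itaconate list had 2 of 19 higher in APOE4 and 1 of 19 in APOE3, with 0 lower in both, and Nfkbiz was among them in both genotypes, at 138 CPM against 51.2 CPM in APOE4 and 110 CPM against 30.3 CPM in APOE3.

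Astrocytes had few list genes past 2-fold, where 10.3% of all genes were higher and 3.33% lower in APOE4, and 4.98% and 3.52% in APOE3. The arginine list had 1 of 9 higher and 1 lower in APOE4 and 0 of 9 in APOE3, the nitric oxide list 1 of 11 higher and 0 lower against 1 of 11 each way, and the polyamine list 1 of 11 higher in APOE4 and 1 of 11 lower in APOE3. The itaconate list had 2 of 19 higher in APOE4 and 0 of 19 in APOE3, the HIF list 1 of 18 higher and 1 lower in APOE4 and 2 of 18 higher in APOE3, and the purine list 3 of 16 higher in APOE4 and 1 of 14 in APOE3. Slc2a9, a urate transporter, was higher in both genotypes, at 8.62 CPM against 3.08 CPM in APOE4 and 10.1 CPM against 3.94 CPM in APOE3. Ndrg1, a hypoxia-responsive gene, was at 38.2 CPM against 7.50 CPM in APOE4 and 11.7 CPM against 5.54 CPM in APOE3.

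The genes whose levels ran most like each member were found by Pearson's r over 57 class-by-library profiles, whose points share libraries and depth. Acod1 ran most like Mcemp1 (0.91), Ly6i (0.90), Pilrb1 (0.89), Fpr2 (0.88) and Il1rn (0.87), and Nos2 most like Bmx (0.82), Mmp25 (0.79) and Pglyrp1 (0.75). Arg1 ran most like Cd300e (0.79) and Ear2 (0.75), and Arg2 most like Asprv1 (0.88), Slfn4 (0.83) and Mmp8 (0.82). Ass1 ran most like Atp2b4 (0.75) and Fam20a (0.70), and Xdh most like Oas1a (0.85), Fxyd5 (0.83), Ly6e (0.82) and Zbp1 (0.82). Hif1a ran most like Gm15283 (0.74), which overlaps it on the other strand, and whether the counting used strand was not given in the sources used here. Among the members themselves, Acod1 ran most like Arg2 (0.67), Arg1 (0.59) and Xdh (0.57).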

How the data were processed

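The deposited files hold whole UMI counts by gene and droplet barcode from Cell Ranger 7.0.1, per the file headers (7.0 and build mm10, per the submitters' processing notes). The library kit was 10x 3' v3.1, per the labels' protocols. From the counts, barcodes entered with 500 genes and 1000 UMIs or more, and with no more than 20% of UMIs mitochondrial. Scrublet, run in scanpy, removed 1268 (8.42%), 1069 (8.18%) and 1404 (9.75%) cells of APOE3 LPS, APOE4 NaCl and APOE3 NaCl. In APOE4 LPS it called 0 of 18182 cells, so its calls were not used there (a filter of 200 genes and 500 UMIs gave 8418 calls, 28.9%, which were used under that alternative). Cells were clustered in scanpy 1.11.5 (2000 variable genes without the 7 members, 30 components, 15 neighbours, Leiden resolution 1 in igraph 0.11.9) into 41 clusters, 34 of them named in 17 classes by at least 3 markers at 2-fold in 25% of cells. Python 3.11.15, numpy 2.4.6, scipy 1.17.1, pandas 2.3.3, scikit-learn 1.9.0 and matplotlib 3.10.9 were used.

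Class sums have exact Poisson intervals, ratios exact conditional binomial intervals and shares exact binomial intervals, and a count of 0 was set to a floor of 3 counts for ratios. On simulated counts, a 4-fold change was called in 98.45% of the 194 changed genes measured (APOE3 microglia) and 99.49% of 195 (APOE4 astrocytes), beside 2.515% and 1.929% of unchanged genes. The simulated counts had Poisson noise alone, without differences between animals, libraries or cells. These shares thus cover counting error only. The members and lists were chosen with earlier results of these data known. The text names all 7 members, list genes at least 2-fold apart, and for each member the genes most like it. Alternatives changed the cell filters, doublet removal, clustering, UMI minimum, fold, pseudocount and scaling.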

Additional observations from a re-analysis of the deposited data

Results flagged for a closer look

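Hif1a went in opposite directions after LPS in the genotypes, with counting intervals that left out no difference in both, in 3 places. These differences were not tested. In choroid plexus cells it had 123 CPM in APOE4 LPS against 76.1 CPM in APOE4 NaCl (1.62-fold higher, 1.43 to 1.83), and 101 CPM in APOE3 LPS against 132 CPM in APOE3 NaCl (1.32-fold lower, 1.17 to 1.49), a difference of 1.08 between the log2 ratios. The trimmed-mean scaling factor for APOE4 was 0.57 on the log2 scale, subtracted from every gene of that class. With it the APOE4 log2 ratio of Hif1a was 0.11, against 0.69 as reported. In ependymal cells it had 90.1 CPM against 62.4 CPM in APOE4 and 49.4 CPM against 65.3 CPM in APOE3, a difference of 0.92, and the APOE4 log2 ratio was 0.04 without the clusters of 1 library, against 0.52. Over all cells the difference was 0.22, with 139 CPM against 128 CPM in APOE4 and 129 CPM against 138 CPM in APOE3. In 4 more classes the directions were opposite with an interval that included no difference in at least 1 genotype: pericytes (80.9 against 202 CPM in APOE4, 158 against 123 CPM in APOE3), neurons (98.5 against 88.1 CPM in APOE4, 65.8 against 92.6 CPM in APOE3), neuroblasts (54.8 against 78.3 CPM in APOE4, 85.1 against 66.9 CPM in APOE3) and fibroblasts (71.1 against 67.9 CPM in APOE4, 49.2 against 81.4 CPM in APOE3), each LPS against NaCl. The differences between the log2 ratios were -1.68 (-2.70 to -0.66) in pericytes, 0.65 (0.32 to 0.99) in neurons, -0.86 (-1.77 to 0.05) in neuroblasts and 0.79 (0.22 to 1.37) in fibroblasts.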

How the results depend on the processing

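No paired analysis was possible because each group was 1 library. Of 1441 member log2 ratios recomputed under the alternatives, 1368 were counted as unchanged against the counting interval of the reported value, 64 moved and 9, of ratios reported past 2-fold, changed sign. Another 59, of 27 ratios reported within 2-fold, also changed sign, among them Acod1 in microglia between the LPS libraries (0.41 to -0.33), Hif1a in APOE3 microglia (-0.17 to 0.07) and Arg1 in microglia between the LPS libraries (-0.38 to 0.12). The cause of these changes was not tested. With 10 CPM added to each level, some log2 ratios counted as unchanged shrank to values outside that interval. Nos2 in endothelial cells for APOE4, LPS over NaCl, was then -0.997, against -1.98 as reported. Past 2-fold, the sign changes were Xdh in astrocytes between the LPS libraries (-0.63 under looser cell filters, -0.18 with 2000 UMIs per cell, -0.21 with doublets kept), Acod1 in endothelial cells between the LPS libraries (-0.087, doublets kept), Xdh in choroid plexus between the LPS libraries (0.12 without cells carrying markers of another class), Xdh in oligodendrocytes for APOE4 LPS (2.14 with doublets kept, 0.10 without such cells) and between the NaCl libraries (-0.34 without such cells), and Nos2 in monocytes between the LPS libraries (1.56 with 2000 UMIs).

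Counts of members and of list genes past the threshold moved as follows. Microglia: APOE4 LPS, 4 members without a UMI minimum, 9 list genes at 50 UMIs and 24 at 1.5-fold; APOE3 LPS, 2 members and 8 list genes at 50 UMIs and 27 list genes at 1.5-fold; between the LPS libraries, 8 list genes without a minimum, 1 member and 1 list gene at 50 UMIs and 9 list genes at 1.5-fold; between the NaCl libraries, 2 members and 4 list genes without a minimum and 1 list gene with 2000 UMIs or at 1.5-fold. Astrocytes: APOE4 LPS, 1 member with 2000 UMIs, without cells of mixed markers or at 50 UMIs and 26 list genes at 1.5-fold; APOE3 LPS, 1 member under looser filters or at 10% mitochondrial UMIs, 2 members with doublets kept or at 1.5-fold and 17 list genes at 1.5-fold; between the LPS libraries, 0 members under looser filters, with 2000 UMIs or at 50 UMIs, 1 member at 10% mitochondrial UMIs, with doublets kept, without cells of mixed markers or at Leiden resolution 2, 4 members without a minimum, 5 list genes under looser filters, without cells of mixed markers or at 50 UMIs and 19 at 1.5-fold; between the NaCl libraries, 1 member and 4 list genes without a minimum, 1 list gene without cells of mixed markers and 0 at 50 UMIs. Endothelial cells: APOE4 LPS, 1 member with 2000 UMIs, with doublets kept or without clusters of 1 library, 2 without cells of mixed markers or at 50 UMIs and 42 list genes at 1.5-fold; APOE3 LPS, 1 member at 10% mitochondrial UMIs, without cells of mixed markers, at Leiden resolution 2, with members in the clustering, at 50 UMIs or without clusters of 1 library, and 4 members and 36 list genes at 1.5-fold; between the LPS libraries, 0 members with 2000 UMIs, with doublets kept or without clusters of 1 library, 1 without cells of mixed markers, and 4, 3, 5 and 8 list genes in those settings in that order, with 30 at 1.5-fold; between the NaCl libraries, 3 list genes with 2000 UMIs or without a minimum, 2 at 10% mitochondrial UMIs, with doublets kept, without cells of mixed markers or with members in the clustering, and 10 at 1.5-fold. Leaving out clusters with more than 80% of cells from 1 library was chosen after seeing the data.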
